A study of Equus caballus with 31 samples.

Results

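Chemokine receptors and chemokines of T cells and monocytes were followed in cells from the joint fluid and the blood of healthy horses and of horses affected by osteoarthritis (OA). The 8 genes were the receptors CCR2, CCR6, CXCR3, CXCR4, CXCR6 and CX3CR1 and the CC ligands CCL5 and CCL22. They were taken by gene symbol, all 8 were present in both expression tables, and they are 8 of the 16799 genes that the tables share. RNA came from the pelleted cells of hyaluronidase-treated synovial fluid and from peripheral blood mononuclear cells (PBMC), both labelled as mixed mononuclear cells of wild-type horses. The 31 libraries came from 18 horses: OA fluid (n = 5), healthy fluid (n = 11), OA blood (n = 6) and healthy blood (n = 9). Both fluid and blood were sequenced from 13 horses, 5 with OA and 8 healthy. Disease was judged from lameness, radiographs and joint analgesia, and horses with recent medication or joint injection had been left out. The labels name no joint, age, sex, breed or batch.

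Chemokines are small secreted proteins that guide leukocytes by binding G protein-coupled receptors, and a cell's receptor set determines which gradients it can follow. CXCR3 is carried by Th1-type and cytotoxic lymphocytes and binds the interferon-induced ligands CXCL9, CXCL10 and CXCL11. CCR6 binds CCL20 and marks Th17-type and MAIT cells, most B cells and some dendritic cells. CXCR6, the receptor of CXCL16, marks tissue-resident and effector T cells, and CXCR4, the receptor of CXCL12, is carried by nearly all leukocytes. CCR2 binds CCL2 and brings classical monocytes into inflamed tissue, whereas CX3CR1 binds fractalkine and marks patrolling monocytes, some macrophages and cytotoxic lymphocytes. CCL5 is made in large amounts by activated and memory T cells and NK cells and acts on receptors that include CCR1 and CCR3. CCL22 is made by dendritic cells and macrophages and attracts cells with CCR4.

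In the horse build EquCab3.0, CCR2 (chr16:41989054-41994617) and CXCR6 (chr16:42292333-42293356) lie 297.7 kb apart in a cluster of chemokine receptor genes that also holds CCRL2, CCR3, CCR1, XCR1 and CCR9. CX3CR1 is on the same chromosome (chr16:47679638-47695399). CCR6 (chr31:2987872-3018801), CXCR3 (chrX:56481027-56483133) and CXCR4 (chr18:19971064-19974347) are on 3 other chromosomes. CCL5 is at chr11:37634697-37640784 and CCL22 at chr3:10308740-10313566. All 8 are protein-coding genes.

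The values are normalized read counts: reads per gene divided by a size factor for each library, set separately for fluid and for blood. Differences are on the scale of log2(value + 1), OA minus healthy, from limma, with 95% confidence intervals and p-values adjusted over all genes tested (a mean of at least 10). A gene was called at an adjusted p below 0.05. The fluid libraries held 25.9 to 36.3 M reads, and OA and healthy fluids did not pass a test for depth (exact permutation test, two-sided, p = 0.25). In blood the OA libraries were deeper, 33.5 ± 1.14 against 27.5 ± 2.31 M reads (SD, n = 6 and 9; exact permutation test, two-sided, p = 0.0004), and the part of depth in the blood results was not tested. T cell markers moved with OA in fluid: 13 of 14 fell, with a median of -2.14 on the log2 scale, and their summed level ran from 9120 to 39677 in OA and from 40498 to 156438 in healthy fluid. None of the 14 was at 0 throughout a group. In blood none of the 14 was called. Among all genes tested, 13.6% were called lower in fluid and 2.2% in blood. Because these are bulk samples, fewer cells of a type and less RNA per cell cannot be told apart.

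**Figure D1:**
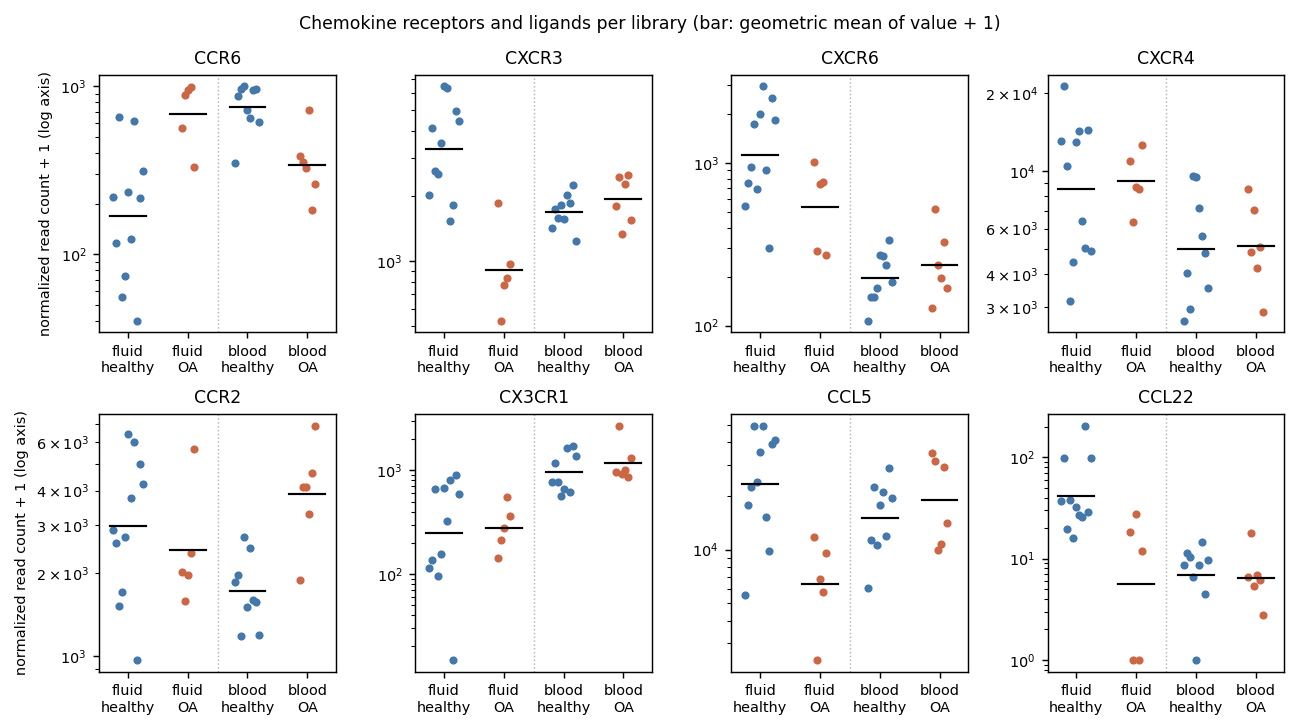
Normalized read count + 1 (log axis) of each gene in every library, by tissue and disease; each point is 1 library and the bar is the geometric mean of the value + 1. CCR6 is high in OA fluid (331 to 985) and low in most healthy fluid (39.1 to 653), while CXCR3 and CCL5 are lower in OA fluid; fluid and blood were normalized separately, so levels are read within a tissue.

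In synovial fluid CCR6, the receptor of CCL20, rose about 4-fold in OA in the limma fit. The Th1-type receptor CXCR3, the lymphocyte chemokine CCL5 and the dendritic cell chemokine CCL22 fell. The receptors CXCR4, CXCR6, CCR2 and CX3CR1 did not pass the test. So 1 of the 8 genes was called higher, against 14.4% of all genes tested in fluid, and 3 were called lower, against 13.6%. The median difference over the 8 was -0.67, and over all 13885 genes it was 0.08. For none of the 8 were the OA and healthy fluids fully apart, which held for 3.56% of all genes.

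CCR6 was measured at 559, 883, 942, 985 and 331 normalized counts in the OA fluids of horses OA_1038, OA_2615, OA_3850, OA_9350 and OA_9570. In healthy fluid it ran from 39.1 through a median of 215 to 653. Of the 5 OA fluids, 3 were above every healthy one, and OA_1038 and OA_9570 were above all healthy fluids but ORC_196 (653) and ORC_202 (621). The group means were 740 ± 284 (SD, n = 5) and 241 ± 213 (SD, n = 11). The fitted difference was 2.02 (SE 0.58, interval 0.81 to 3.23), a 4.05-fold rise, with an adjusted p of 0.0167. It passed in each of 24 alternative fits, with the highest adjusted p, 0.0457, when OA_2615 was left out. The difference ran from 1.57 (2.97-fold, with edgeR) to 2.47 in those fits, and was 1.62 (3.07-fold) with DESeq2.

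CXCR3 had values of 1847, 526.4, 768, 831 and 968 in the OA fluids of OA_1038, OA_2615, OA_3850, OA_9350 and OA_9570. Healthy fluids had 1533, 3538 and 6473 as lowest, median and highest value. Only OA_1038 reached into the healthy range, above ORC_202 (1533) and ORC_205 (1820). CXCR3 fell by 1.87 on the log2 scale (SE 0.35, adjusted p = 0.00172), which is 3.65-fold, and was called in all 24 alternative fits (adjusted p of at most 0.00775).

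CXCR6 was at 1010, 285, 738, 762 and 269 in the OA fluids, again in the order OA_1038, OA_2615, OA_3850, OA_9350 and OA_9570. In healthy fluid the lowest, median and highest were 300, 940 and 2959. OA_2615 and OA_9570 lay below every healthy fluid and the other 3 OA values lay near the middle of the healthy range. The difference of -1.06 (interval -2.09 to -0.04) did not pass (adjusted p = 0.107), although DESeq2 gave an adjusted p of 0.0372, weights per library gave 0.0404, and limma gave 0.037 without ORC_205.

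CXCR4 differed little. Its OA values were 10941, 6348, 8646, 8502 and 12641, and the healthy fluids spread more widely, from 3147 through 10473 to 21187. All 5 OA fluids were within the healthy range. The difference was 0.10 (interval -0.70 to 0.91, adjusted p = 0.857), and its sign turned in some alternatives.

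The monocyte receptors gave no call in fluid. CCR2 was at 2027, 1583, 1968, 2371 and 5682 in OA_1038, OA_2615, OA_3850, OA_9350 and OA_9570, against 968, 2873 and 6425 as lowest, median and highest of the healthy fluids. Of the OA values 4 lay below the healthy median, and OA_9570 stood high. The difference was -0.28 (interval -1.14 to 0.57, adjusted p = 0.618). CX3CR1 was at 143, 211, 275, 554 and 363 in the same order, against 13.8, 323 and 897 in healthy fluid. The lowest of these was ORC_205, which also had the lowest healthy CCR2, CCR6 and CXCR6. The interval of the CX3CR1 difference, -1.46 to 1.81 around 0.18 (adjusted p = 0.88), leaves room for changes of over 2-fold in either direction.

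CCL5 was at 11716, 2402, 6877, 5799 and 9527 normalized counts in the OA fluids, in the horse order used above. Healthy fluids had 5572 (ORC_188), a median of 23932 and 49711 (ORC_201). All OA fluids were below the healthy median, and OA_2615 was below every healthy fluid. CCL5 fell by 1.87 on the log2 scale (SE 0.48, adjusted p = 0.0103), from 28100 ± 15542 (SD, n = 11) to 7264 ± 3566 (SD, n = 5), and all 24 alternatives called it (adjusted p of at most 0.0402).

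CCL22 is a low gene in these cells. The OA fluids had 17.2, 0, 26.5, 0 and 10.8, where the 2 zeros (OA_2615 and OA_9350) are counts of no read, which allow up to 3.77 and 3.71 normalized counts (3 reads, counting error only). Healthy fluids had 15.0, 31.5 and 204.6 as lowest, median and highest, with the highest in ORC_205. The highest OA value, 26.5, exceeded 4 of the 11 healthy ones, and the fitted difference was -2.86 (SE 0.86, adjusted p = 0.0204). With a pseudocount of 8 the difference was -1.64 (adjusted p = 0.0289). The call was lost with edgeR (-2.42, adjusted p = 0.0886), with weights per library (-1.81, 0.0592) and without either zero library, OA_2615 (0.0746) or OA_9350 (0.0691).

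**Figure D2:**
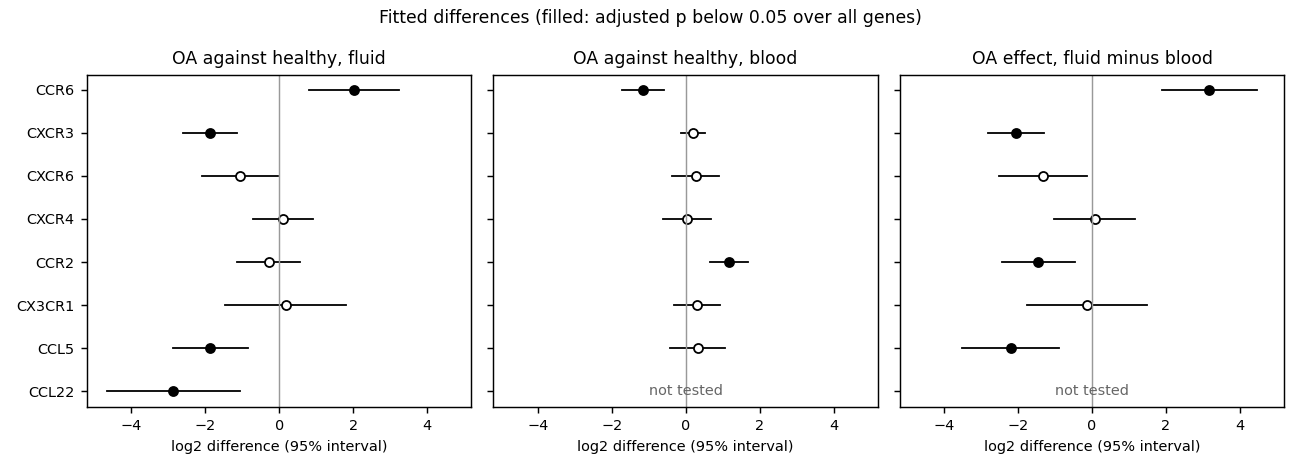
Fitted log2 difference (points) with its 95% interval (lines) for each gene, for OA against healthy in fluid, OA against healthy in blood, and the difference of these effects; filled points have an adjusted p below 0.05 over all genes. CCR6 lies to the right of 0 in fluid (2.02) and to the left in blood (-1.15); CCL22 was too low in blood to test.

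In blood CCR2 and CCR6 were called: CCR2 rose about 2-fold in OA and CCR6 fell by about the same factor. Of the 8 genes 7 were tested, since CCL22 averaged below 10 there (0 to 17.0 over both groups). So 1 gene was called higher, against 3.2% of all genes tested, and 1 was called lower, against 2.2%. The 7 genes had a median difference of 0.27, beside 0.02 over all 13072 genes, and none had groups fully apart, against 1.05% of all genes.

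CCR2 in OA blood had a lowest value of 1898 (OA_1038), a median of 4122 and a highest of 6895 (OA_9570). In healthy blood these were 1179, 1596 and 2703. In 5 of the 6 OA horses blood CCR2 was above every healthy value, and only OA_1038 fell within the healthy range. The rise was 1.17 (SE 0.24, interval 0.67 to 1.68), or 2.25-fold, with an adjusted p of 0.0202. The call was lost without OA_3850 (0.0654), OA_9350 (0.0651) or OA_9570 (0.0609), while the difference stayed between 1.01 and 1.38. In those 3 fits only 31 to 35 genes were called in blood, against 706 with all libraries.

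Of 8 monocyte markers tested in blood, 2 rose, against 3.2% of all genes. Among them was VCAN (1.43, adjusted p = 0.0135, and 0.0502 without OA_9570), a matrix proteoglycan of classical monocytes. The median of the 8 was 0.80, and their summed level ran from 119382 to 265929 in OA and from 56148 to 152840 in healthy blood. S100A12, a calcium-binding protein of neutrophils and monocytes, also rose (1.40, adjusted p = 0.0438; called in 11 of 22 alternatives, with up to 0.122), as 1 of 4 neutrophil markers. Over the 15 bloods, as deviations from the group means, CCR2 and the mean of the monocyte markers had Pearson's r = 0.49. That did not pass (permutation within groups, adjusted p = 0.33). The ratio of CCR2 to the monocyte markers is given with the other ratios.

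CCR6 in OA blood had a lowest value of 183 (OA_9350), a median of 338 and a highest of 716 (OA_4110). Healthy blood had 349 (ORC_188), 874 and 999 (ORC_200). Apart from ORC_188, every healthy value was at least 609, and of the OA values only OA_4110 was above that. CCR6 fell by 1.15 on the log2 scale (SE 0.27, interval -1.72 to -0.58, adjusted p = 0.0289), or 2.22-fold. The call was lost without OA_3850 (0.0816), OA_9350 (0.0855), OA_9570 (0.0864), ORC_200 (0.0502), ORC_207 (0.0564) or ORC_208 (0.0541). B cells also carry CCR6, and none of 8 B cell markers was called in blood, where their median was -0.78. Their summed level was 13352 to 57154 in OA and 24997 to 80726 in healthy blood.

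The other 5 genes tested in blood did not pass. CXCR3 was at 1336, 2043 and 2517 (lowest, median, highest) in OA and 1230, 1743 and 2256 in healthy blood, a difference of 0.19 (interval -0.14 to 0.53, adjusted p = 0.449). CXCR6 ran from 128 through 215 to 523 against 106, 183 and 332 (0.27, adjusted p = 0.592). CXCR4 ran from 2857 through 4974 to 8550 against 2653, 4819 and 9585 (0.03, adjusted p = 0.955). For all 3 the OA and healthy ranges overlapped, with the highest CXCR6 value in OA_2615 (523) above every healthy one. CX3CR1 was at 861, 979 and 2705 in OA against 567, 777 and 1721 (0.31, adjusted p = 0.529), with OA_2615 (2705) far above the other OA horses. CCL5 was at 9899, 21539 and 34764 against 6058, 17894 and 28617 (0.33, adjusted p = 0.57).

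The comparison of CCR6 between the tissues asked whether the OA effect in fluid differs from that in blood. Because each table had its own normalization, levels in fluid and blood cannot be set against each other, but the 2 differences can. The OA effect on CCR6 was 3.17 larger on the log2 scale in fluid than in blood (SE 0.63, interval 1.89 to 4.45, adjusted p = 0.00122). For CXCR3 the OA effect in fluid minus that in blood was -2.06 (SE 0.37, adjusted p = 0.000692), for CCL5 -2.20 (adjusted p = 0.0151) and for CCR2 -1.46 (SE 0.48, adjusted p = 0.0295). So 4 of 7 genes differed, against 23.1% of the 12733 genes tested in both tissues, and the median over the 7 was -1.33 beside -0.05 over all. CXCR6 (-1.33, adjusted p = 0.096), CX3CR1 (-0.13, 0.927) and CXCR4 (0.07, 0.942) did not pass.

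In the horses that gave both samples, fluid minus blood was taken within each animal and compared between OA and healthy horses. CCR6 in fluid minus CCR6 in blood was 0.55, 1.33, 1.53, 2.42 and 0.35 on the log2 scale in OA_1038, OA_2615, OA_3850, OA_9350 and OA_9570. In the 8 healthy horses it ran from -4.11 (ORC_197) through a median of -2.13 to -0.22 (ORC_202). The zero of this scale has no meaning across separately normalized tables, but the 5 OA horses all lay above the 8 healthy ones. CCR6 was the 1 gene of the 7 with groups fully apart, which held for 7.87% of all genes tested. A fit with the horse as replicate block gave 3.38 for CCR6 (SE 0.64, adjusted p = 0.00403), -1.94 for CXCR3 (0.00553) and -1.59 for CCR2 (0.0246). In the fit over all libraries the CCR2 call was lost without OA_2615 (0.0912), OA_3850 (0.076), OA_9350 (0.0705), ORC_208 (0.0518) or ORC_209 (0.0504), and that of CCL5 without OA_2615 (-1.70, 0.0762).

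**Figure D3:**
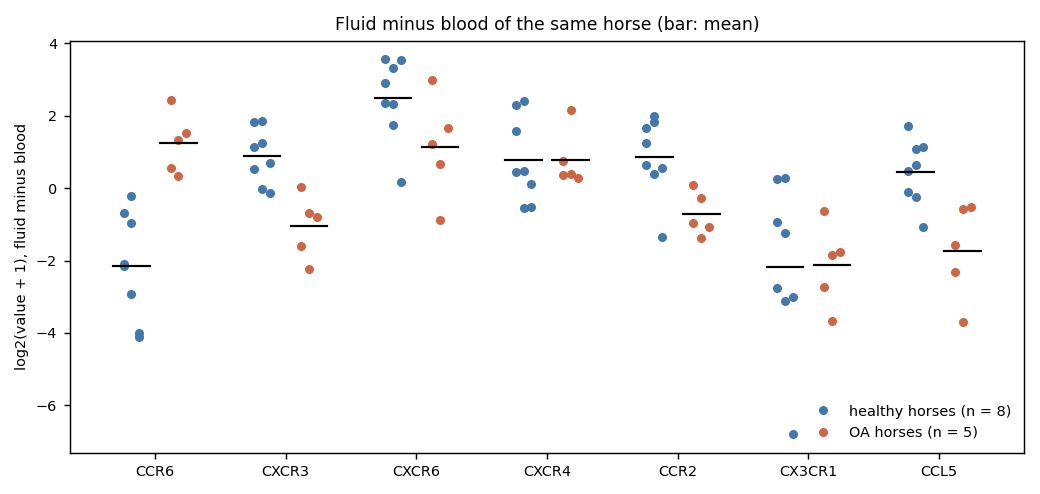
log2(value + 1) in fluid minus that in blood of the same horse for the 7 genes tested in both tissues; each point is a horse (8 healthy, 5 with OA) and bars are means. For CCR6 the OA horses (0.35 to 2.42) lie above all healthy horses (-4.11 to -0.22), while for CXCR3 and CCL5 they lie lower on average; only the gap between the groups can be read, since each tissue has its own scale.

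The chemokine receptors of T cells were next set against the T cell markers of the same library, since 13 of those 14 markers fell in OA fluid. The ratio was log2(value + 1) of the gene minus the mean log2(value + 1) of the 14 markers, which include the CD3 chains, CD2, LCK and ZAP70. It recombines differences given above and shows unequal change, not an independent one. CXCR3 and CCL5, which fell in OA fluid, did not pass in this ratio: CXCR3 differed by 0.24 relative to the markers (exact permutation test, two-sided, p = 0.344, adjusted p = 0.435 over 16 ratios) and CCL5 by 0.24 (exact p = 0.404, adjusted p = 0.435). The CXCR3 ratio was -0.98 to 0.05 in OA and -1.72 to -0.10 in healthy fluid. CCR6 was 4.13 higher relative to T cell markers in OA fluid (exact p = 0.000687, adjusted p = 0.00916). That value joins its own rise of 2.02 to the fall of the markers, whose median difference was -2.14. B cells and some dendritic cells also carry CCR6, and which cells carried it was not tested in either tissue. The CCR6 ratio was -2.18 to 0.79 in OA and -7.23 to -1.87 in healthy fluid.

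CXCR4, whose own level did not differ, was 2.21 higher relative to the T cell markers in OA fluid (exact permutation test, p = 0.00115, adjusted p = 0.00916). Its ratio was 2.28 to 3.64 in the 5 OA fluids and -1.41 to 2.20 in the 11 healthy ones, with no overlap. The marker mean itself was also apart, at 8.99 to 11.14 in OA and 11.15 to 13.06 in healthy fluid. A gene that does not change then has a higher ratio in OA, so the CXCR4 result restates the fall of the markers. Other leukocytes and stromal cells also express CXCR4, and which cells carried it was not tested. CXCR6 was 1.04 higher relative to the markers, which did not pass (exact permutation p = 0.0234, adjusted p = 0.0747). In blood, CCR6 was 0.95 lower relative to T cell markers (-0.95; exact permutation p = 0.0112, adjusted p = 0.0448), a result that passed in only 8 of 18 alternatives (adjusted p of up to 0.0975, without OA_9350).

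The monocyte genes were set in the same way against 8 monocyte markers, among them CD14, CSF1R and VCAN. In blood CCR2 differed by 0.23 relative to these markers (exact permutation p = 0.391, adjusted p = 0.435), where its own level had risen by 1.17; the ratio was -1.66 to -0.54 in OA and -2.19 to -0.58 in healthy blood. In fluid CCL22 was lower by 3.84 relative to them (-3.84; exact permutation p = 0.00275, adjusted p = 0.0147), with CCR2 at -1.26 (exact p = 0.0417, adjusted p = 0.111) and CX3CR1 at -0.80 (exact p = 0.45). In all, 4 of the 16 ratios passed, 3 in fluid and 1 in blood. How many of all genes would pass such a ratio was not tested.

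**Figure D4:**
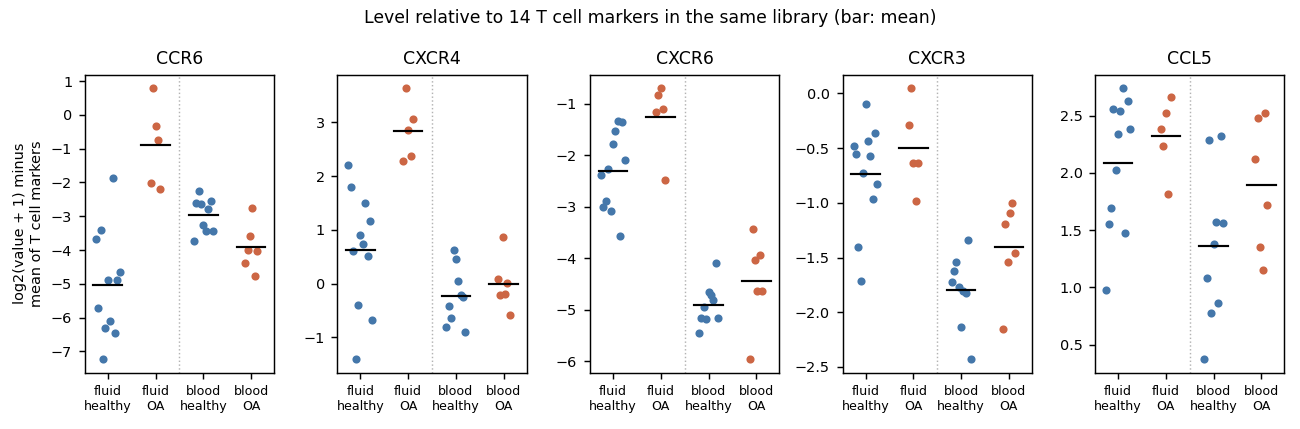
log2(value + 1) of 5 genes minus the mean log2(value + 1) of 14 T cell markers in the same library (points) with group means (bars), by tissue and disease. In OA fluid CXCR4 (2.28 to 3.64) lies above all healthy fluids and CCR6 above most, while CXCR3 and CCL5 overlap with the healthy fluids.

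Lists of the lymphocytes that carry these receptors were read beside them. Over all genes tested, 14.4% were called higher and 13.6% lower in fluid, and 3.2% and 2.2% in blood. Of 14 genes of Th1-type and cytotoxic lymphocytes, 11 fell in OA fluid (median -1.86), led by TBX21 (-2.88, adjusted p = 0.00076), the transcription factor that drives CXCR3, and the death ligand FASLG (-2.68, 0.000973). Of 9 tested genes of Th17-type and MAIT-type lymphocytes, 3 fell in fluid: RORA (-1.68, 0.0066) and MAF (-1.09, 0.0188), both transcription factors, and KLRB1 (-1.27, 0.0192; -0.84 and 0.0689 without OA_2615), the CD161 receptor. The median of the 9 was 0.50, and 5 of them were not called. IL1R1, an interleukin-1 receptor also found on stromal cells, rose (1.78, 0.00232). IL23R, a receptor chain for interleukin-23, did not pass (1.97, adjusted p = 0.089). IL17A was at 0 in 3 of 5 OA and 5 of 11 healthy fluids, with a highest value of 32.1, and it was too low to test, as were IL17F, IL22 and IL26. Of 7 B cell markers tested in fluid, 1 was called, CD79A, and it was lower (-3.39, adjusted p = 0.0413, called in 13 of 24 alternatives). It was -1.82 without OA_9350 (adjusted p = 0.11) and -1.47 with DESeq2 (0.0746).

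In blood, where CCR6 fell, 2 of the 9 Th17-type and MAIT-type genes rose, IL1R1 (1.24, adjusted p = 0.019) and ZBTB16 (1.44, 0.0235), the transcription factor of innate-like T cells. Both calls were lost without OA_3850, OA_9350 or OA_9570 (adjusted p of up to 0.0629 and 0.0779). Of the Th1-type and cytotoxic genes only IL12RB2 was called in blood (1.03, 0.0357; called in 13 of 22 alternatives, with up to 0.0957), of 14.

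Across the libraries of a tissue, each taken as its deviation from its group mean, CXCR3, CXCR6 and CCL5 varied together in fluid. Of 28 pairs among the 8 genes, 5 passed in fluid on Pearson's r (permutation within groups, adjusted over 49 pairs), and of 21 pairs in blood none did (0). How many pairs of all genes would pass was not tested. CXCR6 and CCL5 had r = 0.78 and Spearman's rho = 0.82 over 16 fluids (permutation p = 0.00059 and 0.00034, adjusted p = 0.0289 and 0.0167). Without the 2 fluids farthest from the median r was 0.72. CXCR3 followed CCL5 (r = 0.74, rho = 0.71, permutation p = 0.00179 and 0.00433) and CXCR6 (r = 0.70, rho = 0.72, permutation p = 0.00436 and 0.00339), with adjusted p of 0.0292 and 0.0427 for r and of 0.0707 for both rho. Without the 2 farthest fluids these were r = 0.74 and r = 0.72.

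CCR6 passed with none of these genes but with CX3CR1 (r = 0.77, rho = 0.70, permutation p = 0.00154 and 0.00896, adjusted p = 0.0292 and 0.11), and CCR2 also varied with CX3CR1 (r = 0.71, rho = 0.63, permutation p = 0.00316 and 0.0124, adjusted p = 0.0387 and 0.122). Both dropped to r = 0.61 without the 2 farthest fluids. Against the mean of the cell marker lists, a set of 128 relations added after the data were seen, 6 passed on r. In fluid these were CCL5 with T cell (r = 0.86, rho = 0.85, adjusted permutation p = 0.00576 and 0.00768) and Th1-type and cytotoxic markers (r = 0.85, rho = 0.92), CXCR3 with the same lists (r = 0.79 and 0.84, rho = 0.70 and 0.82), and CCR2 with dendritic cell markers (r = 0.77, rho = 0.71). On rho, CXCR3 with T cell markers and CCR2 with dendritic cell markers did not pass (adjusted permutation p = 0.0522 for each), so 4 of the 6 passed on both. In blood CCL5 followed the Th1-type and cytotoxic markers (r = 0.88, rho = 0.91). For CCR6 in fluid r was -0.21 with T cell markers and 0.59 with B cell markers (rho = 0.55, adjusted permutation p = 0.181 and 0.187). CCR6 passed with no list. How many of all genes would pass with these lists was not tested.

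The genes whose pattern over the libraries was most like each receptor are given as a description, from 12614 genes compared in 16 fluids and 11827 in 15 bloods. For CCL5 in fluid they were CD96 (r = 0.95), a receptor of T and NK cells, CYB561 (0.93) and RAB37 (0.92), and in blood CTSW (0.92), a protease of cytotoxic cells, HOPX (0.89) and KLRK1 (0.89), the NKG2D receptor. For CXCR3 in fluid they were LPAR2 (0.90), MCM2 (0.88) and LIG4 (0.88), and for CXCR6 SH2D1A (0.88), the signalling adaptor SAP, C10orf143 (0.87) and FAAP24 (0.87). CCR6 in fluid was most like NOC3L (0.93), SRL (0.92) and SS18L1 (0.92), of which none was called for OA, and in blood most like CA9 (0.89), ZDHHC14 (0.89) and RIOK2 (0.82). In blood, CXCR4 was most like IL2RA (0.90), the interleukin-2 receptor chain, BTG1 (0.86) and STK39 (0.85), and CCR2 most like ATG12 (0.90), M6PR (0.87) and HK2 (0.86).

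Apart from CX3CR1 in fluid, r was lower on the whole for the remaining genes. In fluid CX3CR1 was most like OPA3 (0.95), TCEANC2 (0.93) and EIF2B1 (0.91), CCR2 most like EBP (0.82), CA12 (0.82) and UBE2D1 (0.81), and CXCR4 most like PRKX (0.81), ABHD12B (0.81) and NSUN4 (0.74). CCL22 in fluid was most like PSMD2 (0.81), DDX11 (0.81) and CATSPERG (0.79). In blood CXCR3 was most like NKD1 (0.83), DPP4 (0.82) and PXYLP1 (0.81), CXCR6 most like GNPDA1, GRHL3 and YY1 (0.82, 0.82 and 0.81), and CX3CR1 most like ABCB9 (0.77), PPIL3 (0.73) and ADGRG1 (0.72).

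None of the ligands of the 6 receptors was called in either tissue: 0 of 6 tested in fluid and 0 of 5 in blood. Among all genes tested, 14.4% were called higher and 13.6% lower in fluid, and 3.2% and 2.2% in blood. With so few ligands, 0 of 5 in blood is near that share. CCL2, the ligand of CCR2, was at 10673 ± 10480 (SD, n = 5) in OA and 4127 ± 9544 (SD, n = 11) in healthy fluid, a difference of 2.37 (interval -0.29 to 5.03, adjusted p = 0.165), and in blood it never exceeded 6.61. The CXCR3 ligands CXCL10 (-1.51, interval -3.14 to 0.13, adjusted p = 0.15) and CXCL11 (-2.87, interval -5.30 to -0.45, adjusted p = 0.0696) had lower means in OA fluid without passing. CCL20, the ligand of CCR6, was too low to test in fluid, where no library had more than 9.67 and 3 of 5 OA and 5 of 11 healthy fluids were at 0. In blood the difference of CCL20 was -0.16 (adjusted p = 0.902). CXCL12, the ligand of CXCR4 (0.39, adjusted p = 0.861), CXCL16, that of CXCR6 (0.16, 0.804), and CCL8 (1.18, 0.4) did not pass in fluid. In blood CXCL16 (0.09, 0.785), CXCL12 (0.38, 0.794), CXCL10 (-0.56, 0.571) and CCL8 (0.38, 0.787) did not pass. CCL7, CCL13, CXCL9 and CX3CL1 were not analysed here.

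The receptors CCR1, CCR3 and CCR4, which bind CCL5 or CCL22, were not called either. In fluid CCR1 (0.58, adjusted p = 0.28), CCR3 (-0.31, 0.758) and CCR4 (-0.75, 0.45) did not pass, and neither did they in blood (0.51, 0.33 and -0.20; adjusted p = 0.315, 0.58 and 0.652). CCL17, the other CCR4 ligand, was too low to test, with at most 14.8 in fluid and 5.08 in blood.

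Among 8 other chemokine receptors tested in fluid, 3 rose, against 14.4% of all genes. All 3 are atypical receptors, which bind and remove chemokines without G protein signalling. ACKR2, a scavenger of inflammatory CC chemokines including CCL5 and CCL22, rose from 28.0 ± 27.7 (SD, n = 11) to 365 ± 353 (SD, n = 5), by 3.51 (adjusted p = 0.0109), and was called in all 24 alternatives. ACKR3, which binds CXCL12, rose by 1.90 (adjusted p = 0.0392) and ACKR4 by 2.57 (0.0418), but these were called in only 13 and 11 of 24 alternatives; ACKR3 was 2.86 with library weights. Without OA_2615 their adjusted p were 0.124 and 0.127. Of 11 markers of synovial fibroblasts tested in fluid, 3 rose, against 14.4% of all genes. COL6A3 (4.39, adjusted p = 0.0247) and PDPN (3.81, 0.0371) were foremost. The summed level of the 11 ran from 1384 to 647989 in OA and from 805 to 129291 in healthy fluid. The call of COL6A3 was lost without OA_2615, OA_3850 or OA_9350 (up to 0.0801), and PDPN was called in 15 of 24 alternatives. The part of these cells in the ACKR results was not tested.

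In blood, 2 of 7 other receptors fell, against 2.2% of all genes, and both are lymphocyte receptors. CCR7, which brings naive and central memory T cells into lymph nodes, fell from 8359 ± 1904 (SD, n = 9) to 3975 ± 1418 (SD, n = 6), by 1.15 on the log2 scale (adjusted p = 0.0196; 0.0571 without OA_3850 and 0.0602 without OA_9570). CCR10, carried by plasma cells and skin-homing T cells, fell by 1.53 (adjusted p = 0.0379) and was called in 14 of 22 alternatives (adjusted p of up to 0.0989). Of 10 other chemokine ligands tested in fluid, 3 rose, against 14.4% of all genes, and none fell. The 3 were CXCL6, CXCL8 and CXCL1 (4.35, 4.34 and 2.47), all ligands of neutrophil receptors. On recovered reads CXCL8 was 2.21 with edgeR and with DESeq2 (adjusted p = 0.141 and 0.11), and CXCL1 was 1.32 and 1.33 (0.259 and 0.244). CXCL6 was 2.57 with a pseudocount of 8 and stayed called, and CXCL1 was called in 11 of 24 alternatives. None of 6 was called in blood (0), where 3.2% of all genes were called higher and 2.2% lower.

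Of 26 genes that act behind chemokine receptors, 7 fell in OA fluid and 3 rose, against 13.6% and 14.4% of all genes. In blood 1 fell, against 2.2%. RHOH, a GTPase of the haematopoietic lineage, fell in fluid (-1.42, adjusted p = 0.00192) and in blood (-0.53, 0.0459), where 9 of 22 alternatives called it (0.128 without OA_9350). In fluid the receptor kinases GRK5 (-1.16, 0.00401) and GRK2 (-0.89, 0.00518), which desensitize the receptors, fell too, with RAC2 (-1.09, 0.00814), the leukocyte motility GTPase. ARRB2 (-0.67, 0.0157), an arrestin, RGS14 (-0.72, 0.0218) and PIK3CG (-0.51, 0.0482) were the other 3 that fell. PLCB3 (1.62, 0.00518), a phospholipase, RGS18 (1.60, 0.00799), a regulator of G protein signalling in myeloid cells and platelets, and the arrestin ARRB1 (0.86, 0.0243) rose. PIK3CG was called in 10 of 24 alternatives and ARRB1 in 19 (0.06 after scaling to equal totals). Without OA_2615 ARRB2 was no longer called (0.0543), nor was RGS14 without OA_1038 (0.0732), OA_3850 (0.0645) or OA_9350 (0.0551).

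**Figure D5:**
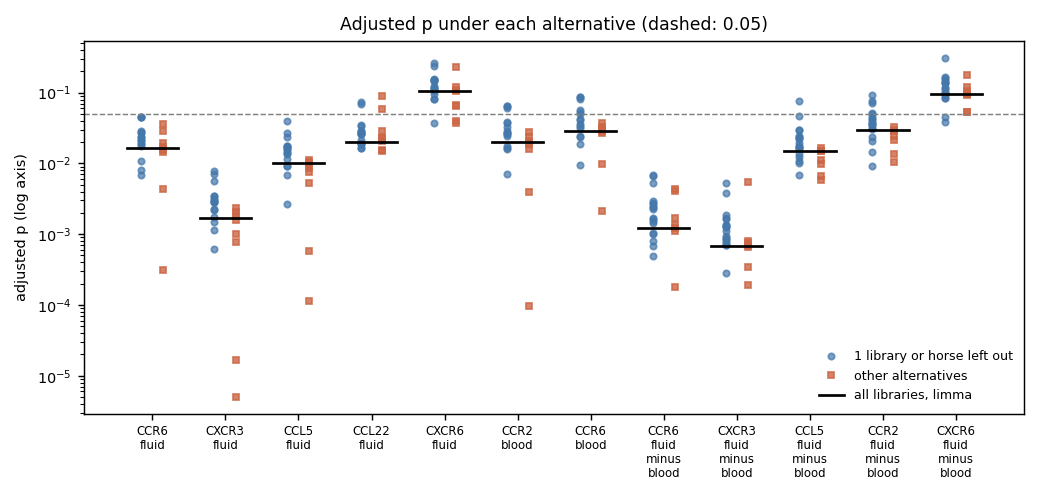
Adjusted p (log axis) for 12 results under each alternative: circles leave out 1 library or horse, squares are the other alternatives, the bar is the limma fit on all libraries and the dashed line is 0.05. CCR6, CXCR3 and CCL5 in fluid, and CCR6 and CXCR3 in the difference, stay below the line throughout, whereas CCR2 and CCR6 in blood cross it when some single libraries are left out.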

How the data were processed

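Per the submitters' processing notes, Partek, cutadapt, STAR 2.7.3, HTSeq and DESeq were used with EquCab3.0; their settings and any use of strand in counting were not found in the labels. Each deposited value is a normalized signal for a gene (its reads over the library's median-ratio size factor, computed by the authors), in separate tables for fluid (17538 genes) and blood (17410 genes). Low values are whole multiples of 1 read, so reads were recovered; 99.87% to 99.98% of a library's values were whole within 0.1 of a read. Coordinates are those of the blood table.

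The 8 genes and all gene lists were chosen with earlier results of these data known. Each tissue was fitted alone with limma 3.58.1 (R 4.3.3, trend, robust) on log2(value + 1), two-sided, with Benjamini-Hochberg adjustment. The size of a change in a low gene depends on this scale. For CCL22 in fluid it was -2.86 here, -2.42 with edgeR and -2.36 with DESeq2. The difference of the OA effect used 4 group means with a weight per tissue. Alternatives were pseudocounts of 0.5 and 8, no filter, scaling to equal totals, edgeR 4.0.16 (quasi-likelihood) and DESeq2 1.42.0 on the recovered reads, library weights, 2 fluids left out together (OA_9570 and ORC_202), each library or horse left out, and the replicate block. Titles give each horse's number, which pairs its fluid and blood: deviations from the group means correlated at 0.123 to 0.391 in 13 of 13 horses. Ratios to marker means were tested by exact permutation (4368 splits in fluid, 5005 in blood). Correlations used permutation within groups. Named were all 8 genes, their partner ligands and receptors, other chemokine genes past the threshold, leading markers and the 3 genes most like each; further named Th17-type genes and those of the signalling list were chosen after their values were seen. The scripts were tested on simulated data. The labels do not say more of how horses were sampled, so p-values measure the spread between these horses. No pair of libraries of a group was nearly identical. Precision is limited by the number of horses and by depth, and these were not compared. Some genes of the lists are not reported here.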

Additional observations from a re-analysis of the deposited data

Results flagged for a closer look

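Of 24 groups of values checked, 3 held 1 horse far from the others, where chance gives about 1 in 20. CX3CR1 in OA blood was at 2705 in OA_2615, against a median of 979. CCR6 in healthy blood was at 349.4 in ORC_188, against a median of 874, so that this healthy horse lay among the OA horses. CCL22 in healthy blood was at 0 in ORC_202, which allows up to 3.97 normalized counts (3 reads), against a median of 7.74.

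The effect of OA differed between fluid and blood, by the test of the difference, for 4 genes: CCR6 (3.169, positive in fluid and negative in blood), CXCR3 (-2.061), CCL5 (-2.199) and CCR2 (-1.457). For CCR6 both single-tissue effects passed in opposite directions, for CXCR3 and CCL5 only the fall in fluid passed, and for CCR2 only the rise in blood passed.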

How the results depend on the processing

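Of 521 values for the 8 genes under other settings, 462 kept their direction and their side of the threshold, 19 lost a call, 5 gained one and 35 changed sign. All sign changes were in CXCR4 and CX3CR1, which were never called. Of 296 ratio values, 282 stayed, 10 lost a call and 4 gained one. For called genes of the lists, 788 of 940 values kept the call and none changed sign. Limits: OA fluid came from 5 horses, the labels give no batch, and the part of the deeper OA libraries in the blood results was not tested.

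CXCR4 in fluid was -0.098 with scaling to equal totals, -0.17 with edgeR, -0.089 with DESeq2, -0.25 with library weights and -0.053 without OA_9570 and ORC_202 together. CX3CR1 in fluid was -0.025, -0.44, -0.39 and -0.095 under the first 4 of these. CXCR4 in blood was -0.027 with edgeR, -0.027 with DESeq2 and -0.00067 with library weights. In the difference between tissues CXCR4 was -0.15 with equal totals, -0.085 with edgeR and -0.085 without the 2 fluids, and CX3CR1 was 0.043 with the replicate block. With 1 library or horse left out, CXCR4 ran from -0.039 to 0.24 in fluid, from -0.12 to 0.20 in blood and from -0.21 to 0.25 in the difference, and CX3CR1 from -0.23 to 0.42 in fluid and from -0.63 to 0.21 in the difference. The cause was not tested.

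Library weights called 6635 genes in fluid (3899 without them) and 2312 in blood (706), and DESeq2 called 1685 in blood. With 1 library or horse left out, 2506 to 4651 genes were called in fluid, 31 to 1209 in blood and 1922 to 3321 in the difference. Of the 8 genes, 0 to 2 were called in blood and 2 to 5 in the difference. The replicate block used only fluid minus blood within the 13 horses that gave both samples, paired by horse. It called 3077 genes in the difference, where the fit over all 31 libraries, with a weight per tissue, called 2940. The samples and the weights differed too, so these counts do not isolate the block. No call of the 8 genes changed. Scaling to equal totals shifted the median of all genes in fluid from 0.08 to -0.12. The split of calls then moved from 2006 higher and 1893 lower to 1312 and 2764 in fluid, and from 1365 and 1575 to 847 and 2356 in the difference. The calls of the 8 genes did not change under it.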
